A study of Mus musculus with 5 samples.

Results

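Mice carrying transferred SMARTA CD4 T cells, which bear 1 transgenic T cell receptor, received tumor cells, and the cells described here are the non-cycling primed cells recovered from the tumor-side lymph node with and without antibody against CTLA4. A cell was taken as primed when it held a UMI (unique molecular identifier, 1 counted transcript) of Tox2 or Wnt10a. It also had to hold 0 Foxp3 UMIs and a UMI of at most 1 of 10 cycling genes: Mki67, Top2a, Birc5, Cdk1, Ccna2, Ccnb2, Cenpe, Ube2c, Nusap1 and Aurkb. The members were thus selected on their own transcripts, so their levels of these 13 genes are a description and support nothing. The rule found 1891 members among the 4566 cells of the antibody library and 451 among the 1099 cells of the untreated tumor library, out of 20149 cells in the whole series.

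The series holds 5 single-cell libraries of sorted CD4+CD45.1+ SMARTA cells, 1 library per group, all labelled C57BL/6. The untreated tumor and antibody groups came from the inguinal lymph node on day 8 after injection of tumor cells into the mammary fat pad, and the antibody group received anti-CTLA4 on days 0, 2 and 5. The Treg-depleted group received diphtheria toxin on days 0 and 2, the group with both treatments received toxin and antibody on those same days, and the naive group was taken from spleen. The growth protocol names the tumor MC38 and the treatment protocol PyMG. The series text speaks of wild-type mice and an isotype antibody and the treatment protocol of PBS, while the untreated library's own label gives no treatment, so whether those mice received a control injection is not settled. The sex and age of the mice, the number pooled per library and the genetic model behind the toxin are not given in the sources used here. Each group is a single library without replicates, so no test between groups was made, and every interval given covers counting error only.

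CTLA4 is an inhibitory receptor that T cells put on their surface after activation, where it takes the ligands CD80 and CD86 away from the co-stimulatory receptor CD28. Blocking antibodies against it release co-stimulation and are used in tumor therapy. T cells that see antigen without enough co-stimulation can stop dividing and enter anergy, a state in which genes such as Nrn1 and Izumo1r (which encodes folate receptor 4) are known to be high. Tox2 encodes an HMG-box factor of follicular helper T cells, and Wnt10a a secreted Wnt ligand.

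The label was checked against the markers that the rule did not use. Izumo1r stood at 2115 CPM (UMIs scaled to a total of 1e+06) in untreated members and 2194 CPM in antibody members, against 246 CPM in naive spleen cells without Tox2 and Wnt10a. Ccr10, a skin and mucosal homing receptor, stood at 94.1 CPM in antibody members but at 8.99 CPM (4 UMIs) in untreated ones. At 1000 UMIs Izumo1r was seen in 76.9% of untreated and 79.6% of antibody members, and also in 48.2% and 58.6% of the non-cycling cells without Tox2 and Wnt10a, so it is not particular to the members. Ccr10 was near the limit of detection in untreated members. Tox2 (153 CPM untreated, 169 CPM antibody) and Wnt10a (490 and 497 CPM) had been required and were alike. Of the members, 100 untreated and 567 antibody cells held both genes, 280 and 1000 held Wnt10a alone, and 71 and 324 held Tox2 alone.

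The limit on cycling genes removed far more of the antibody library than of the untreated one. It kept 451 of 497 primed Foxp3-zero cells without antibody (90.7%, exact binomial 95% interval 87.8 to 93.1) and 1891 of 3243 with antibody (58.3%, 56.6 to 60). All 10 cycling genes were seen in 287 antibody cells. Just inside the limit, with exactly 1 cycling gene, lay 98 untreated and 748 antibody cells, and just outside it, with exactly 2, lay 16 and 313. Cells with more cycling genes were also deeper: the antibody library had a median of 3942 UMIs at 0 genes, 4897 at 1 and 5774 at 2. Depth thus moved with the side of the limit. With the rule applied after thinning every cell to 1000 UMIs, 230 of 244 untreated cells (94.3%, 90.6 to 96.8) and 1195 of 1417 antibody cells (84.3%, 82.3 to 86.2) were kept, a smaller gap. S100a6 stood at 34.6, 51.0 and 62.5 CPM in untreated cells with 0, 1 and 2 cycling genes and at 341, 528 and 524 CPM in antibody cells. Cd69 stood at 1017, 816 and 750.0 CPM in untreated and at 453, 359.6 and 335 CPM in antibody cells with 0, 1 and 2 cycling genes. S100a6 and Cd69 thus had the same order of libraries on both sides of the limit. Nrn1 did not, with 92.2, 112 and 0 CPM in untreated and 11.4, 20.1 and 12.8 CPM in antibody cells. The untreated values at 2 cycling genes rest on only 16 cells and few UMIs. Without cells outside 2000 to 5000 UMIs the kept shares were 95.7% and 87.8%.

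**Figure D1:**
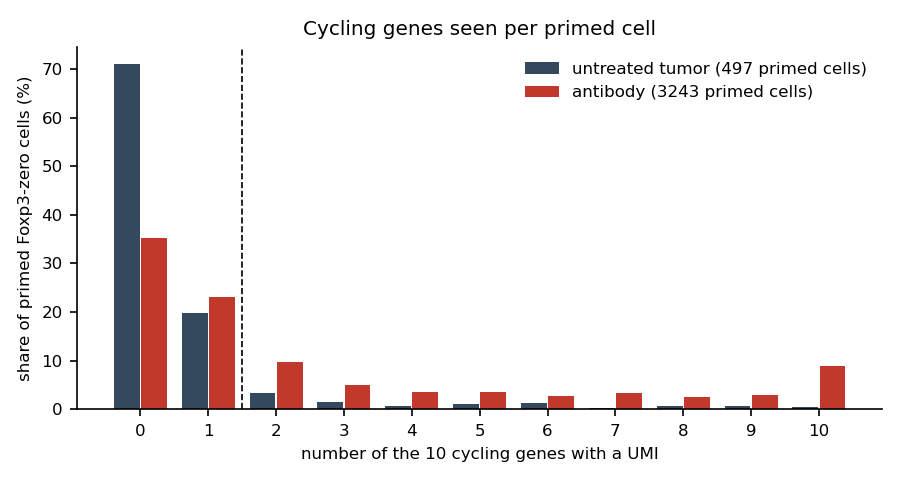
Share of primed Foxp3-zero cells (y axis, percent) by the number of the 10 cycling genes with a UMI (x axis), for 497 untreated and 3243 antibody cells; the dashed line is the limit of the rule. Of the untreated cells 90.7% lie left of the line and of the antibody cells 58.3%, and the antibody library has a further group with all 10 genes.

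The members differed in depth, with a median of 3596 UMIs (quartiles 2815 and 4319) without antibody and 4286 (3357 and 5484) with it. Each cell was therefore thinned at random to 1000 UMIs, which left out 6 untreated members and no antibody member. After this step the median number of genes per cell was 836 without and 832 with antibody. A gene of the SMARTA receptor was seen in 68.3% of untreated and 72.7% of antibody members, and the median mitochondrial share of UMIs over the listed genes was 0.114% and 0.0922%. The libraries of the series shared between 0 and 10 cell barcodes per pair, and the members of both sides shared 1.

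Summed levels of other cell types' markers were of similar size on both sides, while several defining genes within the lists were not. B cell markers summed to 562 CPM in untreated and 525 CPM in antibody members, plasma cell markers to 76.4 and 109 CPM, and myeloid and dendritic markers to 133 and 176 CPM. CD8 T cell markers summed to 60.7 and 67.2 CPM, NK markers to 27 and 25.9 CPM, gamma delta T markers (from Trdc alone) to 449 and 476 CPM and the 1 listed stromal marker to 227 and 187 CPM. Ms4a1, a defining B cell gene, was at 0 UMIs in untreated members and at 1 in antibody members. The MHC class II genes H2-Aa, H2-Ab1 and H2-Eb1 held 3 UMIs in 3 of 451 untreated members (0.665%, 0.137 to 1.93) and 1397 UMIs in 45 of 1891 antibody members (2.38%, 1.74 to 3.17). A single antibody cell held 525 of these UMIs. Over all UMIs the myeloid genes Tyrobp, Fcer1g and Lyz2 held 1 UMI each in untreated members and 82, 67 and 35 in antibody members, and Igkc held 0 and 56. Klrb1c, an NK receptor gene, was seen in 1.33% of untreated and 6.03% of antibody members. With every cell left out that had a UMI of class II, Cd79a, Cd79b, Igkc, Lyz2, Fcer1g or Tyrobp (1749 antibody and 430 untreated cells remained), the log2 ratio of S100a6 was 3.39 against 3.44 with all members. The log2 ratio of Icos was 1.26 against 1.25, the log2 ratio of Fos -1.43 against -1.39 and the log2 ratio of Nrn1 -2.74 against -2.71.

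In the non-cycling primed cells the antibody library held more transcript of S100a4, S100a6, S100a10, S100a11 and Anxa2, of the receptors Ccr10, Gpr183, Icos and Tnfrsf4 and of the transcription factors Maf and Batf. It held less of the immediate early genes Fos and Dusp1, of the retention receptor Cd69, of the anergy gene Nrn1 and of the naive-cell genes Dapl1 and Bach2. The level minimum (a mean of 50 CPM or more, on 30 or more UMIs in total) was passed by 4628 genes. The mean was taken over both libraries, so a gene under 50 CPM in a single library could pass through the other. Such a gene could not be called in the opposite direction. Examples are S100a4, S100a6, Ccr10, Anxa2, Actg2, Ciapin1 and Xrcc5 on the higher side and Nrn1, Bach2 and Irf8 on the lower. With antibody 160 of the 4628 genes (3.46%) stood 1.5-fold or more higher and 198 (4.28%) by that factor or more lower, and the median log2 ratio was -0.02. Summing all UMIs instead of 1000 per cell gave 83 higher and 103 lower genes. In the thinned sums, in 5 further random draws of them and in the full sums alike, 33 genes were higher and 30 lower of 4248 that passed the minimum each time.

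**Figure D2:**
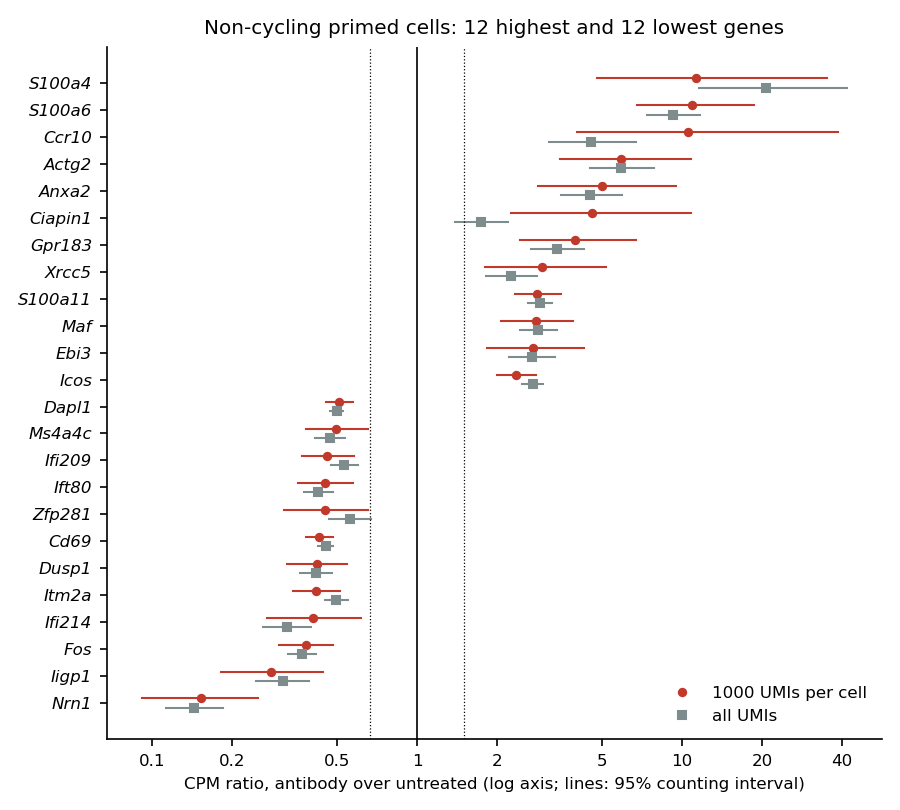
CPM ratio of antibody over untreated members (x axis, log scale) for the 12 highest and 12 lowest genes, at 1000 UMIs per cell (circles) and from all UMIs (squares), with 95% counting intervals; dotted lines mark 1.5-fold in either direction. Ratios run from 11.3 (S100a4) to 0.153 (Nrn1), and Ccr10 and Ciapin1 shrink most from circles to squares.

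Migration and cytoskeleton genes formed the largest group on the higher side. Of 26 list members past the minimum, 11 were at least 1.5-fold higher and 0 lower, beside 3.46% higher and 4.28% lower among all genes, and their median log2 ratio was 0.35. With all UMIs 9 of 26 were higher and 0 lower. The 11 were S100a4, S100a6, Ccr10, Anxa2, S100a11, Ahnak, Lgals1, Cxcr3, S100a10, Tagln2 and Vim. Of these, S100a4, S100a6, Ccr10 and Anxa2 were under 50 CPM in untreated members and passed the minimum through the antibody library. They could therefore only be called higher. The list was chosen with earlier results of these data known, so its counts are a description and support nothing. Summed over the list the level was 10202 CPM in untreated and 13851 CPM in antibody members (1.36-fold, 1.32 to 1.40).

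S100a6 encodes a calcium-binding S100 protein that is high in memory and effector T cells (chromosome 3, 90612882 to 90624181, plus strand; coordinates are GENCODE M21 on GRCm38). It held 17 UMIs, or 38.2 CPM, in untreated members and 785 UMIs, or 415 CPM, in antibody members, a 10.9-fold difference (6.74 to 18.7). With all UMIs the difference was 9.25-fold (7.38 to 11.7), and over 23 other choices of cells, depth and scaling it lay between 4.60-fold and 26.0-fold. The gene was seen in 6 of 445 untreated cells (1.35%, 0.496 to 2.91) and 259 of 1891 antibody cells (13.7%, 12.2 to 15.3) at 1000 UMIs, and in 3.60% and 25% of cells before thinning. Most antibody members thus showed no S100a6 UMI at this depth. Cells with at least 3 B cell markers also held it, at 37.5% of 8 and 30.8% of 52 cells, so they are no measure of background for it.

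The neighbouring S100 genes and annexin A2 went the same way. S100a4 (chromosome 3, 90603771 to 90606045, plus strand), which encodes a calcium-binding protein tied to cell motility, stood at 11.2 CPM (5 UMIs) in untreated and 127 CPM in antibody members, 11.3-fold apart (4.77 to 35.1), and 20.8-fold apart with all UMIs. Its 3′ end shares 56.0% of its 31-base words with the overlapping model Gm42674, so its counts are uncertain. Another gene of that family, S100a11, lies on the plus strand of chromosome 3 from 93520488 to 93526287. It had 245 CPM without and 696 CPM with antibody, a ratio of 2.84 (2.34 to 3.49), and shares 36.3% of such words with pseudogenes. Anxa2, which encodes the membrane-binding partner of the S100a10 protein, lies on the plus strand of chromosome 9 from 69453620 to 69491795. It had 29.2 and 146 CPM, a ratio of 5.00 (2.87 to 9.50).

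Per cell, the S100a6, S100a4, S100a10, S100a11 and Anxa2 transcripts together had a median of 1 UMI in 1000 without antibody and 2 with it. The upper end moved further: the 90th percentile was 3.60 UMIs without antibody and 9 with it. None of the 5 genes was seen in 36.4% of untreated and 22.8% of antibody members. The distributions overlapped widely. The 25th and 75th percentiles differed too, at 0 and 2 UMIs without antibody and 1 and 4 with it. The difference thus ran through the distribution and was largest in its upper tail.

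**Figure D3:**
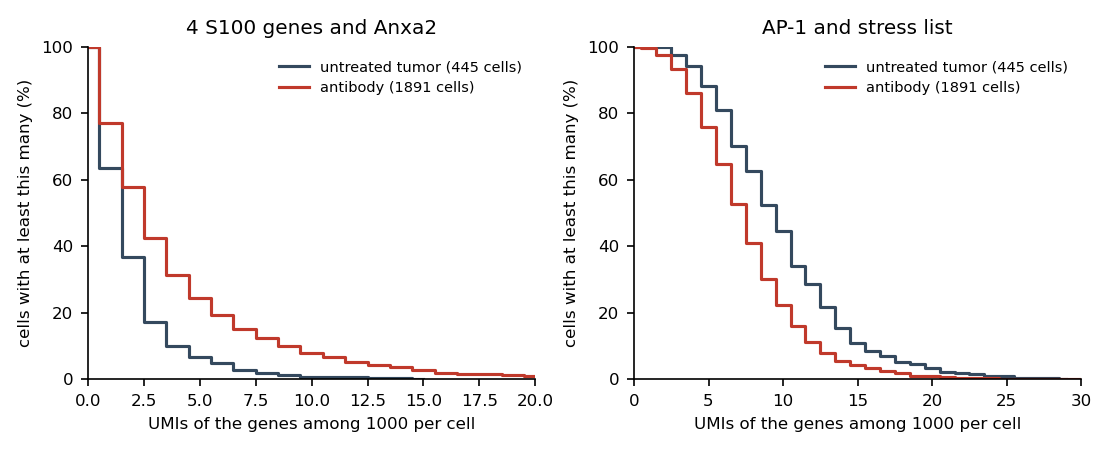
Share of member cells (y axis, percent) with at least the number of UMIs on the x axis, out of 1000 UMIs per cell, for S100a6, S100a4, S100a10, S100a11 and Anxa2 together (left) and the AP-1 and stress list (right), in 445 untreated and 1891 antibody cells. On the left the antibody line lies above the untreated one with a longer tail (90th percentiles 9 and 3.60); on the right the antibody line lies lower over most of its course (medians 7 and 9), though the highest cell is an antibody cell (35 UMIs against 28).

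Within the antibody members these transcripts were found together. The 259 cells with an S100a6 UMI held S100a11 at 1556 CPM (1408 to 1716), S100a10 at 3197 CPM and Anxa2 at 467 CPM, and the 1632 cells without one held 560.0 CPM (524 to 598), 1707 CPM and 95 CPM. Itgb1, the beta 1 integrin chain, stood at 1166 CPM in the former and 482 CPM in the latter, and Icos at 1208 and 734 CPM. Wnt10a stood at 320.5 CPM (255 to 397) beside S100a6 and at 525 CPM (490.0 to 561) without it, and Tox2 at 178 and 167 CPM. The 120 cells with a Ccr10 UMI likewise held S100a6 at 842 CPM (686 to 1023) against 386 CPM (358 to 416) in the 1771 others, and Wnt10a at 333 against 508 CPM. Cells of 1 library are not replicates, so these values describe that library.

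Of the trafficking receptors named by rule, Ccr10 and Gpr183 were higher, Cxcr5 was near level and Ccr7 stood below its untreated level. Ccr10 (chromosome 11, 101172997 to 101175443, minus strand) went from 8.99 CPM (4 UMIs) to 94.1 CPM (178 UMIs), 10.5-fold (4.02 to 38.9), but 4.52-fold (3.15 to 6.70) with all UMIs. It was seen in 0.899% of untreated and 6.35% of antibody cells at 1000 UMIs, and in 3.15% and 13.7% before thinning. Cells with B cell markers and no Tox2 or Wnt10a, at median depths of 5181 UMIs (8 untreated cells) and 5063 UMIs (52 antibody cells), held it in 0 cells after thinning (exact upper limits 36.9% and 6.85%) and 1 cell each before. At 1000 UMIs the shares in untreated and in antibody members both lie within what those few cells allow as background. Before thinning the antibody share (12.2 to 15.3) lay above the upper limit of the 52 antibody cells, 10.3%. The untreated share lay below the upper limit of the 8 untreated cells, 52.7%. Gpr183, the oxysterol receptor that guides T cells to the edge of follicles (chromosome 14, 121952551 to 121965195, minus strand), stood at 40.4 CPM in untreated and 159 CPM in antibody members (ratio 3.94, 2.45 to 6.73). In naive spleen cells it stood at 369 CPM, above both. Cxcr3, a receptor for interferon-induced chemokines, stood at 126 and 212 CPM (ratio 1.69, 1.27 to 2.27) and at 1.46-fold with all UMIs; it passed 1.5-fold in 12 of 23 other choices of cells, depth and scaling.

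Genes of the follicular helper program were partly higher, while its central receptor was near level and its central regulator could not be compared. Of 18 members past the minimum 4 were higher (Maf, Icos, P2rx7 and Batf) and 1, Il6st, lower (median log2 ratio 0.22), beside 3.46% higher and 4.28% lower among all genes. Icos, an inducible co-stimulator of the CD28 family (chromosome 1, 60977927 to 61000320, plus strand), stood at 337 CPM without and 799 CPM with antibody (ratio 2.37, 2.00 to 2.82). It was seen in 24.5% and 48.5% of cells at 1000 UMIs and in 54.6% and 82.9% before thinning, beside 12.5% of 8 and 3.85% of 52 cells with B cell markers after thinning. Maf, a transcription factor of interleukin 10 and interleukin 21 producing cells (chromosome 8, 115682942 to 115707794, minus strand), stood at 101 and 283 CPM (ratio 2.80, 2.07 to 3.89). Batf, an AP-1 family factor of effector T cells, stood at 272 and 475 CPM (ratio 1.75, 1.44 to 2.13). Cxcr5, the receptor that draws cells into follicles, was close to level at 58.4 and 55.0 CPM (ratio 0.941, 0.608 to 1.51), and Bcl6, the factor that defines these cells, fell short of the level minimum with 53.9 CPM (24 UMIs) and 40.2 CPM (76 UMIs).

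Among co-stimulatory receptors, 2 of 12 were higher and 1 lower, beside 3.46% higher and 4.28% lower among all genes. Tnfrsf4 (OX40) stood at 301 CPM in untreated and 590.2 CPM in antibody members, a ratio of 1.96 (1.64 to 2.36), and Tnfrsf9 (4-1BB) at 117 and 70.3 CPM, a ratio of 0.602 (0.434 to 0.846). Cd28 itself was within 1.5-fold. Of 7 inhibitory receptors 1 was higher, beside the same share among all genes. This was Cd160, at 53.9 and 114 CPM (ratio 2.12, 1.39 to 3.38). Ctla4, the target of the antibody, stood at 155 and 133 CPM (ratio 0.859, 0.656 to 1.14); the antibody binds the protein, so the transcript does not measure the blockade. Pdcd1, which encodes PD-1, stood at 121 and 169 CPM (ratio 1.39, 1.04 to 1.90), and Lag3 at 98.9 and 71.9 CPM (ratio 0.727, 0.514 to 1.05).

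Immediate early and stress genes formed the largest group on the lower side. Of 23 members of the AP-1 and dissociation stress list 7 were at least 1.5-fold lower (Fos, Dusp1, Cd69, Ppp1r15a, Klf6, Fosb and Jun) and 1 higher (Nr4a1), beside 4.28% lower and 3.46% higher among all genes, and the median log2 ratio was -0.40. With all UMIs 8 of 24 were lower and 1 higher, a gene other than Nr4a1. The summed level was 9378 CPM without and 7197 CPM with antibody (1.30-fold lower, 1.26 to 1.35), and the median per cell was 9 and 7 UMIs in 1000. These genes are known to respond both to receptor signals and to handling of tissue, and the tissue was digested before sorting; whether the digestion differed between the libraries was not tested.

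Fos, a subunit of AP-1, held 119 UMIs, or 267 CPM, in untreated and 193 UMIs, or 102 CPM, in antibody members, a ratio of 0.382 (0.302 to 0.484). Dusp1, which encodes a phosphatase of MAP kinases, held 211 and 88.3 CPM, a ratio of 0.418 (0.323 to 0.544). Cd69, an early activation receptor that holds cells in lymph nodes (chromosome 6, 129267325 to 129275436, minus strand), held 973 and 416 CPM, a ratio of 0.428 (0.38 to 0.482). Each of these was also at least 1.5-fold lower in all 23 other choices of cells, depth and scaling. Nr4a1, which responds to receptor signals, was the exception of the list at 42.7 and 87.8 CPM (ratio 2.06, 1.28 to 3.5), and fell to 1.33-fold with all UMIs.

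Fos and Dusp1 are the immediate early genes among the 12 lowest, and the 250 bases before their RefSeq starts (GRCm38.p6) are given 5′ to 3′ on the strand of the gene, for Fos on the plus strand of chr12:85473640-85473889 and for Dusp1 on the minus strand of chr17:26508473-26508722. Capitals mark a cAMP response element (TGACGTCA), an AP-1 site (TGAGTCA) or a CArG box on either strand. The response element letters occurred in 1.55% of 32851 RefSeq promoters of this length, the AP-1 letters in 4.46% and a CArG box in 1.47%.
Fos: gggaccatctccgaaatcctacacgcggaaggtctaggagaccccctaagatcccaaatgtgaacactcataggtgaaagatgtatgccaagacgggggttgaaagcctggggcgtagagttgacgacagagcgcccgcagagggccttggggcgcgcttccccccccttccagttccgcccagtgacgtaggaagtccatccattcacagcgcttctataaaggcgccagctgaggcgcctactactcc
Dusp1: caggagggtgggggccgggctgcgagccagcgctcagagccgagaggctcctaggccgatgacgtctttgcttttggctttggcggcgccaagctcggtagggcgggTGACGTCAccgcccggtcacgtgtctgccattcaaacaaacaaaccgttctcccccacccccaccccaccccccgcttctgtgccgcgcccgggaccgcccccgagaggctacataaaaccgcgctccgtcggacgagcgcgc
The Dusp1 window held 1 cAMP response element, which begins 143 bases before the start. The Fos window held none of the 3, which says only that these letters are not in this window.

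Anergy genes did not move as a group. Of 16 members 1 was lower, Nrn1, and 1 higher, Nr4a1 (median log2 ratio -0.17), beside 4.28% lower and 3.46% higher among all genes. With all UMIs 2 of 16 were lower and 0 higher. Nr4a1 is also on the AP-1 and stress list and the receptor response list. Nrn1, which encodes neuritin (chromosome 13, 36725361 to 36735131, minus strand), stood at 96.6 CPM (43 UMIs) in untreated and 14.8 CPM (28 UMIs) in antibody members. That is a ratio of 0.153 (0.0917 to 0.252), and the gene was between 5.28-fold and 12.5-fold lower in 23 other choices. It was seen in 6.52% of untreated and 1.11% of antibody cells at 1000 UMIs, and in 11.2% and 3.65% before thinning, beside 0 of 8 and 0 of 52 cells with B cell markers after thinning. Izumo1r, the other widely used surface marker of anergic cells, did not follow it, with 2115 and 2194 CPM (ratio 1.04, 0.966 to 1.11). Tox, a factor of exhausted and follicular helper cells, stood at 469.7 and 351 CPM (ratio 0.748, 0.639 to 0.878), and Cblb and Itch, ubiquitin ligases of anergy, were within 1.5-fold.

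Naive-cell and quiescence genes were partly lower. Of 19 naive and homing genes 5 were lower (Foxp1, Tdrp, Txk, Dapl1 and Bach2) and 1 higher (Il7r), beside 4.28% lower and 3.46% higher among all genes. Their median log2 ratio was -0.28, and they summed to 7193 CPM without and 5766 CPM with antibody. Dapl1, a gene of naive and memory-like T cells, stood at 928 CPM and 473 CPM (ratio 0.509, 0.453 to 0.574), against 1255 CPM in naive spleen cells. Bach2, a repressor that holds back effector fate, stood at 89.9 and 40.7 CPM (ratio 0.453, 0.305 to 0.681). Ccr7, the receptor for entry into lymph nodes, stood at 384 and 268 CPM (ratio 0.698, 0.586 to 0.835). Of 12 quiescence genes 3 were lower and 0 higher, beside the same shares among all genes. Among the lower ones was Foxp1, a guardian of T cell quiescence, at 609 and 348 CPM (ratio 0.572, 0.496 to 0.662).

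Of 20 members of the interferon gamma list 6 were lower and 2 higher (median log2 ratio -0.30), beside 4.28% lower and 3.46% higher among all genes. Irf8, an interferon-regulated transcription factor, stood at 78.7 and 41.8 CPM (ratio 0.531, 0.353 to 0.815). When both Tox2 and Wnt10a were required, this list's median was 0.10, and Irf8 and Iigp1, an interferon-induced GTPase, turned to the higher side on 1 and 2 untreated UMIs. Of 28 type I interferon genes 3 were lower and 2 higher (median log2 ratio -0.23), beside the same shares among all genes, and with all UMIs 6 were lower and 0 higher. The 3 lower ones, Ifi214, Ifi209 and Ifi206, belong to the Ifi200 cluster, and Ifi209 shares 46.5% of the words of its 3′ end with Ifi214, so how reads divide between them is uncertain.

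Growth and metabolism genes mostly lay within 1.5-fold, while the summed respiration, proteasome and glycolysis levels were a little higher with antibody. At 1000 UMIs per cell all 58 respiration genes, all 32 proteasome genes and all 29 Myc target and ribosome building genes lay within 1.5-fold, with median log2 ratios of 0.18, 0.21 and 0.09. Respiration transcripts summed to 30469.7 CPM in untreated and 34518 CPM in antibody members (1.13-fold, 1.11 to 1.15). The summed proteasome level was 1.15-fold higher (1.12 to 1.19) and the summed glycolysis level 1.19-fold higher (1.14 to 1.25). Of 14 glycolysis genes 1, Pgam1, was higher and 0 lower, with a median of 0.29. Of 6 cholesterol synthesis genes 1 was higher and 1 lower. Of 15 G2M genes 1 was higher and 1 lower and of 17 S phase genes 2 were higher and 1 lower, with medians of 0.06 and -0.04. The counts of these lists stand beside 3.46% higher and 4.28% lower among all genes. S phase transcripts summed to 2706 CPM in untreated and 2967 CPM in antibody members (1.10-fold, 1.03 to 1.17), and the 90th percentile per cell was 5 and 6 UMIs, so some S phase difference remained within the limit. Smc4, a condensin subunit, was the lower G2M gene at 1148 and 727 CPM (ratio 0.633, 0.571 to 0.702). The 10 selecting genes summed to 71.9 CPM without and 104 CPM with antibody (1.45-fold, 0.993 to 2.18).

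Genes that respond to the receptor were split. Of 21 members 4 were higher (Irf4, Batf, Nr4a1 and Bcl2a1b) and 2 lower, Cd69 and Tnfaip3, an inhibitor of NF-kappa B (median log2 ratio -0.14). With all UMIs 2 of 21 were higher and 2 lower. In the thinned sums, the 5 further draws and the full sums alike, 1 of 19 was higher, Batf, and 1 lower, Cd69. Bcl2a1b shares 83.0% of the words of its 3′ end with Bcl2a1a, Bcl2a1d and Gm29094, so its counts are uncertain. Of 17 survival and death genes 2 were higher and 1 lower, and of 10 Treg and suppression genes 2, Ebi3 and Tnfrsf4, were higher and 1, Tnfrsf9, lower. The counts of these lists stand beside 3.46% higher and 4.28% lower among all genes. The general T cell genes were near level: the co-receptor Cd4 stood at 885 and 789.5 CPM (ratio 0.892, 0.797 to 0.999) and the adhesion receptor Cd44 had a ratio of 0.92 (0.747 to 1.14).

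Few effector genes of the Th1 type had enough transcript to compare. Of 8 members past the minimum 1, Cxcr3, was higher and 0 lower, beside 3.46% higher and 4.28% lower among all genes. Tbx21, the factor of Th1 cells, held 8 UMIs without and 16 with antibody, a ratio of 0.471 once scaled to the library totals. Over 23 other choices that ratio lay between 0.308 and 2.47. Ifng, the Th1 cytokine, held 8 and 18 UMIs, or 18.0 and 9.52 CPM (ratio 0.529). Both genes fell short of the level minimum. Of 8 cytokines and ligands 2 were higher, Il2 and Tnfsf14, beside the same share among all genes. With all UMIs 1 of 7 was higher. Il2 and Tnfsf14 each passed 1.5-fold in 17 of 23 other choices of cells, depth and scaling. The 3′ end of Il2 shares 58.1% of its words with Ntan1, so its counts are uncertain. Ebi3, a subunit of interleukins 27 and 35, stood at 58.4 and 161 CPM (ratio 2.75, 1.84 to 4.28). Actg2, a smooth muscle actin gene, stood at 31.5 and 185 CPM (ratio 5.87, 3.45 to 10.8). Ciapin1, which encodes a protein of iron-sulfur cluster assembly, stood at 18 and 82.5 CPM (ratio 4.59, 2.27 to 10.8), but at a ratio of 1.74 with all UMIs. Xrcc5, the Ku80 subunit of DNA repair, stood at 38.2 and 113 CPM (ratio 2.96, 1.81 to 5.18). On the lower side Itm2a, a membrane protein gene of T cells, stood at 346 and 144 CPM (ratio 0.417, 0.341 to 0.512), Ift80, of intraflagellar transport, at 238 and 107 CPM (ratio 0.451, 0.355 to 0.576) and Ms4a4c at 189 and 93.6 CPM (ratio 0.496, 0.38 to 0.651). Il7r, the interleukin 7 receptor chain, stood at 69.7 and 105 CPM (ratio 1.5, 1.03 to 2.27).

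Non-cycling Foxp3-zero cells without Tox2 and Wnt10a, 539 untreated and 986 antibody cells of the same 2 libraries, were compared in the same way. Of 4637 genes 174 (3.75%) were higher and 192 (4.14%) lower there. Migration genes had a median log2 ratio of 0.57 with 13 of 26 higher, and AP-1 and stress genes a median of -0.55 with 12 of 24 lower, both farther from 0 than in primed cells. S100a6 was 8.17-fold higher and Icos 3.10-fold higher, Fos stood at a ratio of 0.398 and Nrn1 at 0.194. Gpr183 was 1.19-fold higher against 3.94-fold in primed cells, and interferon gamma genes had a median of -0.01 against -0.30. The 2 cell sets come from the same libraries, and whether they differ from each other was not tested. In the 46 untreated and 1352 antibody cycling primed cells the migration median was 0.54 and the stress median -0.19, on few untreated cells.

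Levels in the 5 libraries show where the 2 sides stand against naive and depleted cells. Icos, the co-stimulator, was lowest in naive cells at 76.0 CPM, with 337 CPM in untreated, 799 in antibody, 692 in depleted and 450.5 CPM in both-treatment members. S100a6 stood at 70.2 CPM in naive cells, above the 38.2 CPM of untreated members, and at 415, 1436 and 631 CPM with antibody, depletion and both. Nrn1, the anergy gene, was highest in untreated members at 96.6 CPM, with 0.649 CPM in naive, 14.8 in antibody, 8.55 in depleted and 27 CPM in both-treatment members, the last values resting on 1 and 3 UMIs. The intervals of depleted and both-treatment members overlapped for Icos and Nrn1 and were apart for S100a6, and that of Nrn1 in untreated members (69.9 to 130.2 CPM) overlapped the one with both treatments (5.57 to 79.0).

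**Figure D4:**
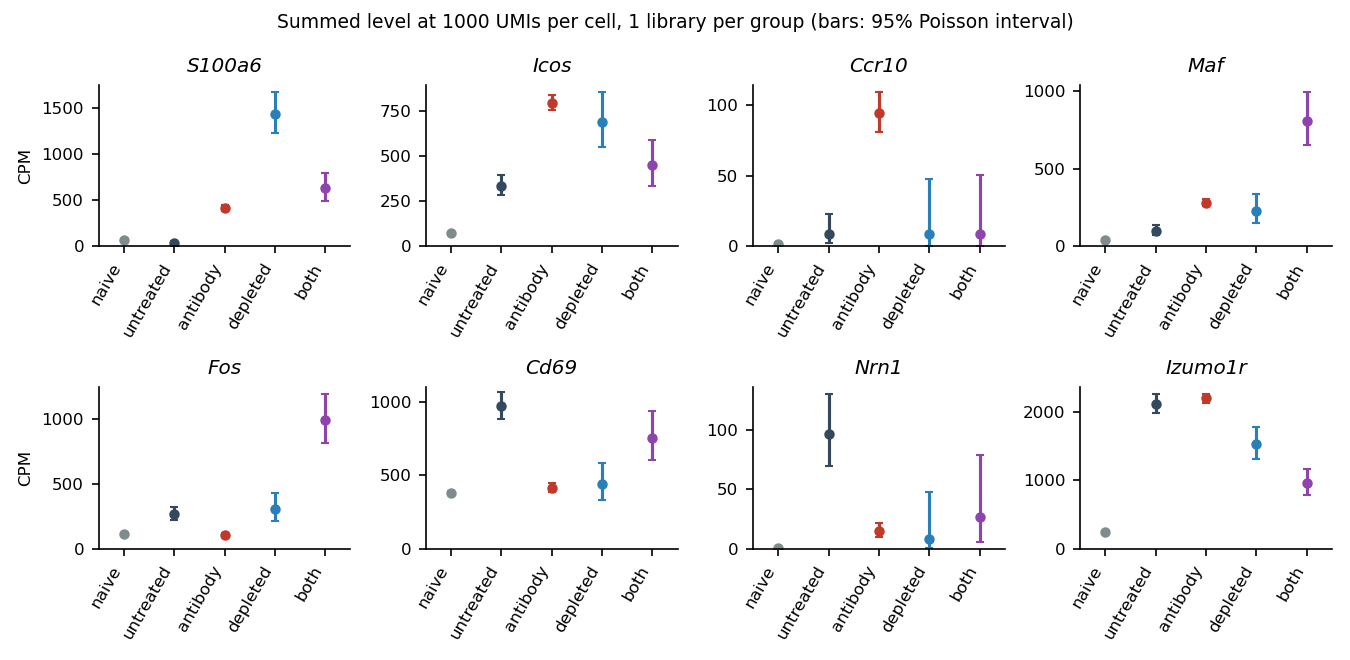
CPM (y axis, from 0, own scale per gene) of 8 genes in naive spleen cells without Tox2 and Wnt10a and in the non-cycling primed cells of 4 lymph node libraries, with 95% Poisson intervals from summed UMIs at 1000 UMIs per cell. S100a6, Fos and Cd69 separate untreated from antibody cells in one direction and depleted from both-treatment cells in the other, and Izumo1r is level between the first pair.

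The same antibody was also given on top of Treg depletion, in 2 libraries that the rule did not use and that share nothing with the first pair. The rule found 120 members in the Treg-depleted library and 115 with both treatments, of which 117 and 111 reached 1000 UMIs. These cells were mostly marked by Tox2 alone, 96 of 120 and 102 of 115, whereas 71 of 451 untreated and 324 of 1891 antibody members were. A receptor gene was seen in 60.8% and 47.0% of them, and their median depths were 3922 and 2392 UMIs. With so few cells 313 of 2102 genes (14.9%) passed 1.5-fold on the higher side of the antibody and 294 (14.0%) on the lower.

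After depletion some of the leading differences had the opposite sign and others did not. S100a6 stood at 1436 CPM (168 UMIs) in depleted and 631 CPM (70 UMIs) in both-treatment members, a ratio of 0.439 (0.327 to 0.584). Fos stood at 308 and 991 CPM, a ratio of 3.22 (2.19 to 4.83), and Cd69 at 444 and 757 CPM, a ratio of 1.70 (1.19 to 2.45). Of 20 stress genes 12 were higher and 1 lower (median 0.71, against -0.40 without depletion), beside 14.9% higher and 14.0% lower among all genes of this pair. The migration list had 2 of 23 higher and 9 lower, beside the same shares among all genes, with a median of -0.45 against 0.35. On the higher side Maf kept its direction, at 231 and 811 CPM (ratio 3.51, 2.26 to 5.62). With all UMIs S100a4 was also higher after depletion (ratio 1.82, 1.47 to 2.26), as were Anxa2 (1.43, 1.14 to 1.78) and Gpr183 (1.59, 1.25 to 2.03). At 1000 UMIs per cell the intervals of these 3 genes included 1, with ratios of 1.25, 1.48 and 1.20. S100a11 (ratio 0.695, 0.531 to 0.907) and Icos (0.651, 0.448 to 0.937) were lower, like S100a6.

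Over the 2091 genes past the minimum in both pairs the log2 ratios correlated at Pearson r = -0.31 and Spearman rho = -0.31, across genes, which are not independent replicates, and 811 (38.8%) had the same sign. Of the 198 genes lower without depletion 55 could be compared, of which 4 (7.27%) were lower and 32 (58.2%) higher after depletion. Of the 160 higher genes 52 could be compared, of which 4 (7.69%) were higher and 16 (30.8%) lower. Among all genes of the depletion pair 14.9% were higher and 14.0% lower. With Tox2 as the only marker in the first pair the log2 ratio of S100a6 was 3.14 there, the log2 ratio of Fos -1.34, the log2 ratio of Cd69 -1.15 and the log2 ratio of Dusp1 -1.20, in the same directions as with either marker. Whether the difference between the pairs exceeds the spread between libraries was not tested and cannot be with 1 library per group.

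**Figure D5:**
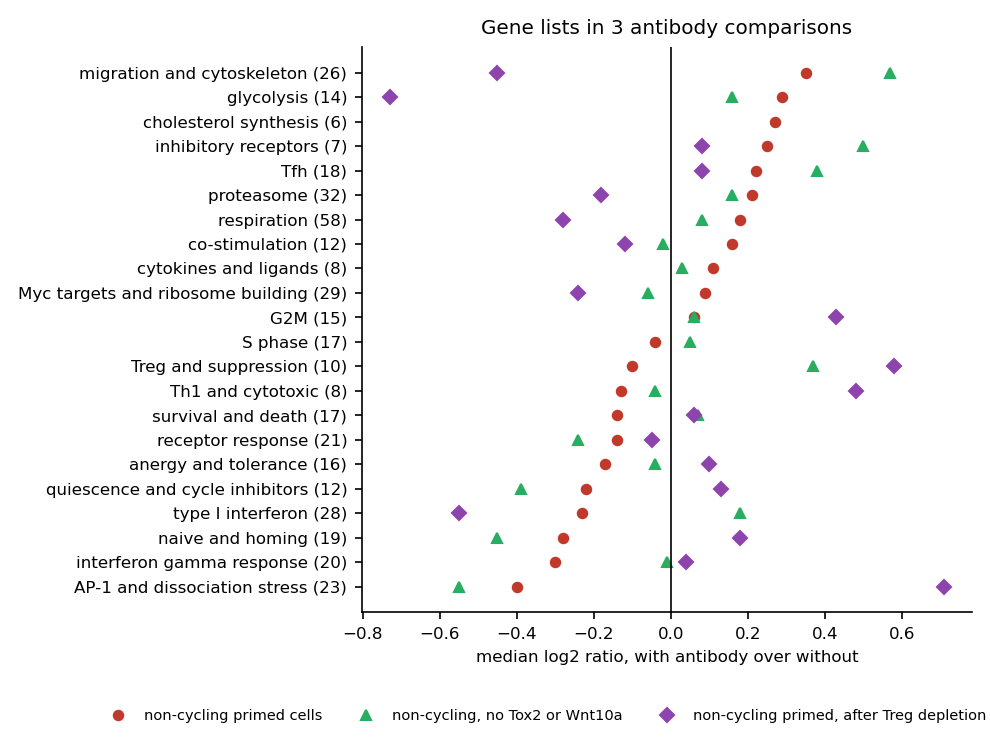
Median log2 ratio (x axis, with antibody over without) of each gene list in non-cycling primed cells (circles), in non-cycling cells without Tox2 and Wnt10a (triangles) and in non-cycling primed cells after Treg depletion (diamonds); numbers in brackets are the genes past the level minimum in the first set, and only lists with at least 6 such genes are drawn. The migration list lies at 0.35 and 0.57 without depletion and at -0.45 after it, the AP-1 and stress list at -0.40, -0.55 and 0.71.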

How the data were processed

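The authors deposited UMI counts for each library as a table of whole numbers. The submitters' processing notes name bcl2fastq 2.20, Cell Ranger 6.0.0, the build mm10, R 4.1.1 and Seurat 4.0.4; per the labels' protocols libraries were 3′ 10x Chromium v2. The tables used here list 11924 genes, and totals refer to these alone. The rule was applied to the deposited counts, each cell was drawn to 1000 UMIs without replacement, and UMIs were summed per library and scaled to CPM; 1 UMI was 2.25 CPM in untreated and 0.529 CPM in antibody members. Ratios carry exact conditional binomial 95% intervals, levels Poisson and shares Clopper-Pearson ones. A count of 0 was set to 3 UMIs per library for a ratio. Doublets were neither called nor removed.

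The members and gene lists were chosen with earlier results of these data known. Named genes are the 12 highest and 12 lowest when ranked on the end of the interval closest to 1 (leaving out the selecting genes and mitochondrial, ribosomal, sex-linked, receptor, blood protein and unnamed ones), the 2 to 4 most different members in each list, and 17 genes named throughout; other list members and marker genes were named after their values were seen. Alternatives were other depths and draws, other limits, markers, cells and scalings. The combined cell choice, the class II check, the count over 7 tables and the checks of the depletion pair were chosen after seeing the data. Ratios, intervals and thinning were tested on simulated data. Python 3.11.15 (numpy 2.4.6, scipy 1.17.1, matplotlib 3.10.9) and R 4.3.3 (edgeR 4.0.16, for TMM factors) were used.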

Additional observations from a re-analysis of the deposited data

Results flagged for a closer look

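For 12 named genes the antibody difference in non-cycling primed cells was at least 1.5-fold in opposite directions without and with Treg depletion, in pairs that share no library. The difference between the pairs was not tested, since each group is 1 library. The log2 ratio after depletion was -1.19 for S100a6 (3.44 without depletion), -0.62 for Icos (1.25), -0.75 for Cxcr3 (0.75) and -0.79 for Xaf1, an interferon-induced gene (0.61). The genes lower without depletion were higher after it: Txk, a Tec family kinase, at 2.22 (-0.90), Klf6, a zinc finger factor, at 2.08 (-0.77), Dusp1 at 2.08 (-1.26), Fos at 1.69 (-1.39), Itm2a, a membrane protein gene of T cells, at 1.52 (-1.26), Cd69 at 0.77 (-1.23), Foxp1 at 0.76 (-0.81) and Birc2, an inhibitor of apoptosis, at 0.62 (-0.59).

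The depleted libraries gave 117 and 111 cells, and some of these values rest on few UMIs: Dusp1 and Klf6 each held 8 UMIs with depletion alone and 32 with both treatments. At 1000 UMIs the intervals of the ratio after depletion included 1 for Xaf1 (0.251 to 1.27), Cxcr3 (0.313 to 1.09) and Birc2 (0.722 to 3.39). With all UMIs the 12 signs were as given, for example -1.08 for S100a6, 1.98 for Fos and 2.00 for Dusp1, but without depletion Xaf1 was at 0.19 and Cxcr3 at 0.55, both under 1.5-fold. Among cells with a SMARTA receptor gene and no Il2ra UMI, 72 and 52 cells, S100a6 was at -1.19, Fos at 2.37 and Cd69 at 0.85. An Il2ra UMI was seen in 1.67% and 3.48% of these members and in 0.887% and 0.846% of untreated and antibody members.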

How the results depend on the processing

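The counts of genes depended on depth: 317 genes were higher and 352 lower at 500 UMIs per cell, and 83 and 103 with all UMIs. They were 281 and 370 with the rule applied to thinned counts, 354 and 436 with Tox2 as the only marker, 498 and 601 with both markers required, 338 and 427 at a minimum of 25 CPM, 57 and 77 at 100 CPM, and 105 and 156 with the strictest cell choices together. The kept share of primed cells without and with antibody was 94.3% and 84.3% by thinned counts, 71.0% and 35.2% at 0 cycling genes, 95.7% and 87.8% at 2000 to 5000 UMIs, and 94.7% and 63.7% without cells holding 2 markers of another type. With antibody it was 56.1% by Wnt10a alone, 54.4% with both markers and 55.0% in cells with a receptor gene. The interferon gamma median was 0.10 with both markers.

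Single genes changed sign. Srebf2 had log2 ratios of 0.04, 0.00, 0.05 and 0.14 in 4 of 5 other draws and 0.04 under the strictest choices, Pmvk -0.12 and Bcl2l1 -0.13 in 1 draw, and Bcl2l1 -0.40 under the strictest choices. Mcm4 had 0.43 by thinned counts. Tnfrsf9 had 0.01 and Irf8 2.50 by Tox2 alone, and with both markers Gbp9 had 0.02, Tnfrsf9 0.19, Tdrp 0.33, Irf8 1.93 and Iigp1 0.27. For these the cause was not tested. TMM factors (0.988 and 1.01) moved no count past 1.5 times but turned the balance from 160 higher and 198 lower to 185 and 160. A limit of 1 gene over the full G2M and S phase lists left 0 of 3243 and 0 of 497 cells and gave no value.

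No paired analysis was possible because each group is 1 library and the labels give no replicate numbers, and none can be left out. At this depth 1 UMI is 2.25 CPM in untreated members, so genes under about 50 CPM were not compared.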
